A study of Oreochromis niloticus with 12 samples.

Results

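The genes described here encode axon guidance ligands and receptors and cadherin-type or contactin adhesion proteins, measured in the brain and pituitary of male Nile tilapia (Oreochromis niloticus). They were chosen by gene symbol alone, as rows of the brain table whose symbol starts with that of a semaphorin (classes 3 to 7), plexin, neuropilin, Eph receptor, ephrin, netrin, netrin receptor, Slit, Robo, cadherin, protocadherin, contactin or anosmin gene and whose mean was at least 10 normalised reads. This gave 68 of the 27115 genes in the brain table, of which 67 fall into 14 families. The remaining gene, unc50, was taken by the pattern through the first letters of its symbol and is not a netrin receptor. A further symbol, cdh15, had a mean of 5.80 normalised reads and was left out. The members nearest above the minimum were cdh16 (mean 10.4) and cdh17 (mean 13.3). The pituitary table held 5 of the same symbols.

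The animals were mature males of the Lake Manzala strain, kept 2 males and 4 to 6 females to a tank and watched for social behaviour until day 14. Socially stable dominant males were compared with subordinate males, with 3 libraries per status and tissue and 12 in all. The labels give no age, treatment or genetic change for either group. They do not say whether the numbered fish came from separate tanks, so p-values measure the spread between these samples only.

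Axon guidance proteins steer growing nerve fibres. Semaphorins signal through plexins, and most class 3 semaphorins need neuropilins as co-receptors. Ephrins and Eph receptors act between touching cells, netrins attract or repel through Dcc and Unc5 receptors, and Slits repel through Robo receptors. Cadherins and protocadherins join cells by calcium-dependent contacts, while contactins are immunoglobulin-type proteins held to the axon surface by a lipid anchor. In the adult brain many of these genes stay active at synapses, at the nodes of myelinated axons and in blood vessels. Anosmin is an extracellular matrix protein whose loss in humans stops olfactory axons and gonadotropin-releasing hormone neurons from reaching the brain.

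Brain libraries held 23733115 to 26867631 reads and the values below are normalised read counts, reads divided by a size factor of each library. No transcript lengths were used, so levels are compared between samples and not between genes. A difference is the mean log2(value + 1) of dominant males less that of subordinate males, given with its standard error (SE). Tests used limma, and adjusted p-values are Benjamini-Hochberg values over every gene tested in that tissue. Known markers of several brain regions and cell types differed between the same libraries. The 8 measured hox genes of paralog groups 5 and above, which mark the posterior hindbrain and spinal cord, had a summed level of 656 to 1211 reads in the dominant group, against 45.7 to 496 in the subordinate group. Sums over the 6 of 9 telencephalon markers found were 7474 to 8009 in dominant and 9364 to 11736 in subordinate brains. Of 8 myelin markers 7 were found, with sums of 159110 to 177992 in dominant and 105827 to 191173 in subordinate brains. Sums over 8 of 9 pituitary hormone genes were 10362 to 15002 in dominant and 13856 to 29532 in subordinate brains. Sums over 5 of 8 radial glia and astrocyte markers were 37634 to 45849 in dominant and 30922 to 36326 in subordinate brains. Sums over 5 of 8 neuron markers were 52827 to 60597 in dominant and 51455 to 59489 in subordinate brains, and 0 of the markers found were at 0 in every brain. The part of these markers in the results below was not tested, beyond a second fit with the mean log2 value of 6 posterior hox genes as a covariate, here called hox-adjusted. In a whole-brain sample, fewer cells of a type and less RNA per cell cannot be told apart.

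In the brain the guidance and adhesion genes differed little with social status. Of the 68 members 0 passed an adjusted p under 0.05 in limma (5 had an unadjusted p under 0.05), where 6 of all 21743 genes tested did (0.0276%). On the recovered reads edgeR called 0 members, beside 0.0276% of genes, and DESeq2 also 0, beside 0.387%. An unadjusted p under 0.05 was found for 4 members in edgeR and 5 in DESeq2, with the share of all genes not counted. The members' log2 differences ran from -0.36 to 0.52 with a median of 0.011, against a median of -0.0043 over all genes tested. For 56 of 68 the difference was smaller than 0.25 in size, beside 16734 of all 21743 genes tested. The median size of the difference was 0.114 for the members and 0.107 over all genes tested. Over the 4839 genes tested with means of 680 to 2065 reads it was 0.068, and 4500 of them were below 0.25. The members' own means ran more widely, from 10.4 to 5725 reads. Small differences were thus not particular to the members. The 95% interval of the difference lay within 1 log2 unit on either side for 65 members and within 0.5 for 45, so for those members changes beyond these sizes lay outside the interval. The other 3, cdh16, cdh17 and pcdh20, were those with the fewest reads.

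**Figure D1:**
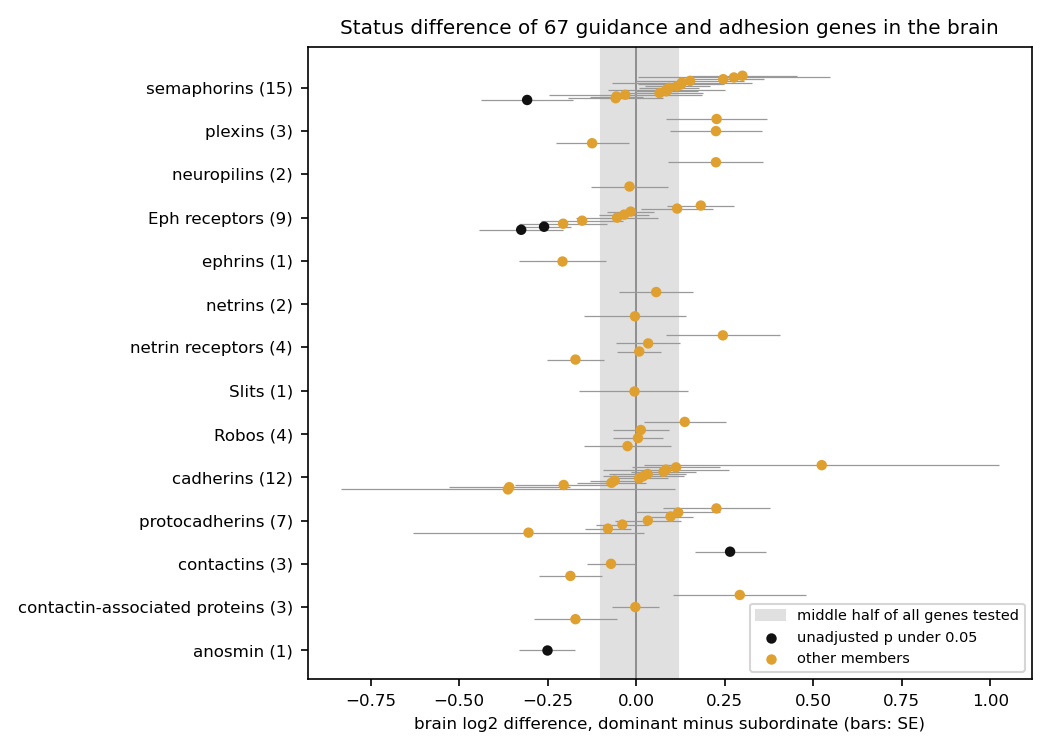
Log2 difference (dominant minus subordinate) of 67 members in the brain, by family, with SE bars. The grey band is the interquartile range of all genes tested, and the 5 black points are the members with an unadjusted p under 0.05. Most points lie in or near the band, and the widest bar is that of cdh17 (SE 0.50).

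The 5 members with an unadjusted p under 0.05 make 7.35% of 68, beside 5.17% of all genes tested. They were epha5, epha10, anos1 and sema3e, all below 0 (4 of 68, beside a background of 2.07% of genes tested), and cntn1, above 0 (1 of 68, beside 3.1%). The groups did not overlap for 5 members (7.35%, beside 10.8% of all genes tested). Of these, sema3b was higher in dominant brains (1 of 68, beside 5.46%), and epha5, epha10, anos1 and cntn5 were lower (4 of 68, beside 5.33%). The count of 5 changed when single libraries were left out. It was 2 without dominant replicate 1, 9 without dominant replicate 3 and 11 without subordinate replicate 1. Without subordinate replicate 2 or without subordinate replicate 3 it was 2. The share of all genes in these fits was not counted, so the shifts cannot be read as particular to the members. In the hox-adjusted fit the count of members was 2, cdh17 and sema3f (2.94%, beside 6.83% of all genes tested). The limma unadjusted p in that fit was 0.060 for epha5, 0.061 for anos1, 0.26 for sema3e, 0.57 for epha10 and 0.83 for cntn1. The hox score was 6.88, 7.43 and 6.50 in the dominant libraries and 5.37, 1.52 and 2.19 in the subordinate ones. The authors' deposited table is made from the same libraries and is no independent test. It gives p-values under 0.05 to the same 5 members as limma without the covariate (7.35%, beside 3.90% of all 27115 brain genes). Those 27115 include genes below the minimum mean that every member had to reach, so these shares are not like for like. For the authors' p-values, the share among the genes tested was not counted.

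**Figure D2:**
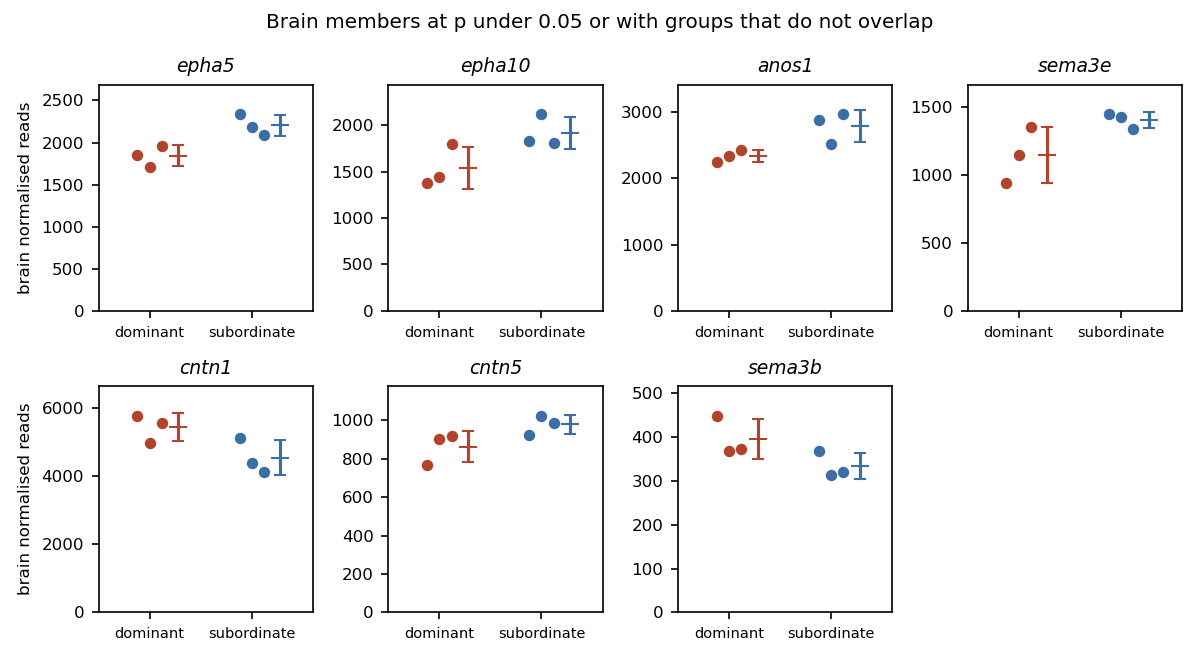
Normalised reads in each brain library for the 7 members with an unadjusted p under 0.05 or with groups that do not overlap (points), with mean and SD (bars, n = 3), dominant on the left. epha5, epha10, anos1 and cntn5 have all 3 dominant points below the subordinate ones, and sema3b has them above.

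Semaphorins are secreted or membrane-bound guidance ligands. Of 15 measured, 11 had a difference above 0 (48.8% of all genes tested did), with a median of 0.093 and a range of -0.31 to 0.30, and 0 passed. In the hox-adjusted fit 6 of 15 were above 0 and the median was -0.05. sema3e, whose product acts directly on plexin D1 and guides axons and vessels, had 940.4, 1145 and 1348 reads in dominant brains, against 1445, 1425 and 1337 in subordinate brains. The third dominant library lay among the subordinate values, and the difference was -0.31 ± 0.13 (SE, adjusted p = 0.934). Its receptor gene plxnd1 had 651, 639.7 and 607 reads in dominant brains, against 666, 449 and 527 in subordinate brains (difference 0.23, adjusted p = 0.934). The groups overlapped through subordinate replicate 1, and the hox-adjusted difference of plxnd1 was -0.29.

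sema3b, a class 3 repellent, was the member whose groups lay apart on the upper side. It had 449, 369 and 372 reads in dominant brains, against 367, 313 and 321 in subordinate brains, a difference of 0.25 ± 0.11 (SE, adjusted p = 0.934). The gap between the lowest dominant and the highest subordinate value was small beside the spread within either group. The hox-adjusted difference was 0.03. sema5b, a transmembrane semaphorin with thrombospondin repeats, had the largest difference above 0 in the family, 1978 ± 225 against 1619 ± 309 reads (SD, n = 3 each, difference 0.30, adjusted p = 0.934). Its groups overlapped, and its hox-adjusted difference was -0.10.

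sema3a, the founding repellent of the class, had 768, 682 and 869.7 reads in dominant brains, against 758, 783 and 559 in subordinate brains (difference 0.15 ± 0.15, SE, adjusted p = 0.935). The single low value is that of subordinate replicate 3, and without that library the difference was -0.0016. sema7a, a lipid-anchored semaphorin that acts through integrins and plexin C1, had 1459, 1442 and 1919 reads against 1595, 1232 and 2191. Both groups were wide, with a difference of -0.03 ± 0.22 (SE). sema5a, a further semaphorin with thrombospondin repeats, had 2692, 3255 and 3849 reads in dominant brains, against 3499, 3546 and 3066 in subordinate brains, with no separation (difference -0.06 ± 0.13, SE, adjusted p = 0.962). The other 9 semaphorins (sema3c, sema3d, sema3f, sema3g, sema4d, sema4g, sema6a, sema6b and sema6d) had overlapping groups and differences of -0.06 to 0.28.

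The semaphorin receptors were similar. nrp1, the neuropilin that binds sema3a and vascular growth factor, had 1622, 1399 and 1461 reads in dominant brains, against 1560.0, 1111 and 1197 in subordinate brains (difference 0.23 ± 0.13, SE, adjusted p = 0.934). Its subordinate replicate 1 stood with the dominant values. The hox-adjusted difference of nrp1 was -0.22. nrp2, which binds sema3f, had 2509, 2507 and 2978 reads against 3001, 2730.2 and 2378 (difference -0.02 ± 0.11, SE), with the groups interleaved. Among plexins, plxna4 had 1526, 1396 and 1655 reads in dominant brains, against 1498, 1363 and 1080.5 in subordinate brains (difference 0.23), and plxna1 had 2007, 1982 and 2542 against 2396, 2319 and 2358 (difference -0.12). In both genes the groups overlapped and the adjusted p was 0.934. The plxna4 difference was 0.091 without subordinate replicate 3 and 0.011 in the hox-adjusted fit.

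Eph receptors are receptor tyrosine kinases that read ephrins on neighbouring cells. Of 9 measured, 7 had a difference below 0, with a median over the 9 of -0.05 and a range of -0.32 to 0.18, and 0 passed. Of all 21743 genes tested 11128 lay below 0, and of the 4839 with means of 680 to 2065 reads 2790 did. Across the alternatives 5 to 7 of the 9 Eph receptors lay below 0. epha5, an ephrin-A receptor of forebrain and retinal projections, had 1852, 1713 and 1960.2 reads in dominant brains, against 2339, 2189 and 2086 in subordinate brains. All 3 dominant values lay below the subordinate ones, with a difference of -0.26 ± 0.08 (SE, 95% interval -0.44 to -0.08, adjusted p = 0.895). This was the smallest p among the members. epha10, a receptor that lacks kinase activity in mammals, had 1375, 1443 and 1796 reads against 1829.6, 2120.4 and 1805. The groups also lay apart, narrowly between dominant replicate 3 and subordinate replicate 3, and the difference was -0.32 ± 0.12 (SE, adjusted p = 0.934).

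The hox-adjusted difference was -0.34 for epha5 and -0.13 for epha10 (limma unadjusted p = 0.060 and 0.57). epha4, a receptor for ephrins of both classes, had 4707, 5140.4 and 5180.4 reads in dominant brains, against 4847, 5295 and 5043 in subordinate brains. Its difference was -0.02 with a 95% interval of -0.17 to 0.14. epha6 (667 ± 98.7 against 766 ± 62.0) and epha7 (1403 ± 188 against 1553 ± 136) lay below 0, while epha3 (923 ± 101 against 810.1 ± 35.1) and ephb3 (1718 ± 208 against 1579.8 ± 101) lay above (SD, n = 3 each), with adjusted p = 0.934 for each of the 4. ephb4, a receptor of vein endothelium, and epha8 differed by -0.03 and -0.05. The median Eph value of a library, relative to its mean over 6 brains, was -0.096, -0.084 and 0.071 in dominant brains, against 0.038, 0.074 and 0.0034 in subordinate brains. Dominant replicate 3 thus stood with the subordinate libraries. The ligand efnb2, an ephrin that marks arteries and acts on EphB receptors, had 1382, 1790.3 and 1693 reads against 1759, 1732 and 2122 (difference -0.21, adjusted p = 0.934). Leaving out dominant replicate 1 gave -0.097, and leaving out subordinate replicate 3 gave -0.11.

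Of the netrin and Slit genes, with their receptors, 0 passed. ntng1, a netrin held to the membrane, had 951, 879.6 and 966 reads in dominant brains, against 1037, 858 and 807 in subordinate brains (difference 0.06), and the secreted ntn4 had 215 ± 32.4 against 215 ± 21.8 (SD, n = 3 each). The attractive receptor dcc had 121, 98.8 and 114 reads against 85.6, 109 and 87.5 (difference 0.24 ± 0.16, SE, adjusted p = 0.934). The repulsive receptor unc5b had 1199.6, 1145 and 1056 against 1177, 1348 and 1306 (difference -0.17, adjusted p = 0.934). Subordinate replicate 2 for dcc and subordinate replicate 1 for unc5b overlapped with the dominant libraries. The hox-adjusted difference was 0.53 for dcc and -0.0062 for unc5b. unc5c had 1386, 1262 and 1302 reads against 1332, 1272 and 1319.9 (difference 0.0086 ± 0.063, SE), and unc5a differed by 0.03. The ligand slit2 had 811, 765 and 728 reads against 943, 794 and 613, a difference of -0.0071, and its subordinate libraries spread on both sides of the dominant ones. The hox-adjusted difference of slit2 was -0.41 (limma unadjusted p = 0.14). Among its receptors robo2 had 2247, 2489 and 2663 against 2505, 2491 and 2322, and robo4, of endothelium, had 900.0, 749 and 725 against 773, 635 and 748. The 4 Robos differed by -0.02 to 0.14.

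anos1 was among the members whose groups lay apart. It had 2243, 2337 and 2435 reads in dominant brains, against 2881, 2520.3 and 2972 in subordinate brains. The dominant values were close together and all below the subordinate ones, with a difference of -0.25 ± 0.08 (SE, 95% interval -0.44 to -0.06, adjusted p = 0.934). The hox-adjusted difference was -0.35 (limma unadjusted p = 0.061).

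Of the 12 cadherins 7 had a difference above 0, with a median of 0.014, and 0 passed. cdh2, neural cadherin, had 2465 ± 169 against 2339.6 ± 224 reads (SD, n = 3 each, difference 0.08, 95% interval -0.14 to 0.29). The largest well-counted difference was that of cdh22, a type 2 cadherin of the brain, with 520.5, 622 and 792 reads in dominant brains, against 699, 913 and 848 in subordinate brains (difference -0.36 ± 0.17, SE, adjusted p = 0.934). Dominant replicate 3 overlapped with the subordinate libraries. cdh24, also a type 2 cadherin, had 4484, 5416 and 6082 against 5274, 6469 and 6627 (difference -0.20, adjusted p = 0.934). In the hox-adjusted fit both changed sign, to 0.06 for cdh22 and 0.14 for cdh24. cdh17 and cdh16, cadherins of gut and kidney epithelium in mammals, held 4.55 to 17.6 reads in any brain. The atypical cdh13 and cdh23 and the type 2 cdh7, cdh8, cdh11, cdh18 and cdh20 differed by -0.07 to 0.11.

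Of the 7 protocadherins 4 had a difference above 0, with a median of 0.033, and 0 passed. pcdh7 had 2893, 3012 and 3121 reads in dominant brains, against 2902, 2870.4 and 2667 in subordinate brains (difference 0.10 ± 0.06, SE, adjusted p = 0.934), and only dominant replicate 1 overlapped with the subordinate libraries. pcdh19, whose human gene is linked to epilepsy, had 2461 ± 37.7 against 2604 ± 162, and pcdh12, a protocadherin of endothelium, had 144 ± 23.8 against 122 ± 6.10 (SD, n = 3 each). pcdh8, pcdh15, pcdh18 and pcdh20 differed by -0.04, 0.12, 0.03 and -0.30.

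The contactins did not share a direction, with 1 of 3 above 0. cntn1, which forms the axonal side of the junction next to the node of Ranvier, had 5776, 4972 and 5564 reads in dominant brains, against 5111, 4374 and 4118 in subordinate brains. The difference was 0.27 ± 0.10 (SE, 95% interval 0.03 to 0.50, adjusted p = 0.934), and dominant replicate 2 lay below subordinate replicate 1. Its partner in that junction, cntnap1, had 4278, 2820.4 and 3044 reads against 3332, 2490.2 and 2408 (difference 0.29 ± 0.19, SE, adjusted p = 0.934). The high value of cntnap1 is that of dominant replicate 1. Myelin marker sums were lowest in subordinate replicate 3 (105827) and highest in subordinate replicate 1 (191173), and cntn1 and cntnap1 were lowest and highest among subordinate brains in the same libraries. Among dominant brains the order was another, with the highest sum in dominant replicate 2 (177992), where cntn1 and cntnap1 were both lowest. The part of myelin in these differences was not tested. The hox-adjusted differences were 0.04 for cntn1 and -0.12 for cntnap1. cntn5, a contactin of auditory and other sensory paths, had 768, 900.3 and 918 reads against 923, 1024 and 988. Its groups lay apart on the lower side (difference -0.19 ± 0.09, SE, adjusted p = 0.934). cntn2 (2961 ± 187 against 3108 ± 84.4, SD, n = 3 each) and cntnap5 (difference -0.17) overlapped between groups. cntnap2, of potassium channel clustering along the axon, had 3256, 3529 and 3728 reads in dominant brains, against 3513, 3491 and 3510.0 in subordinate brains. Its subordinate values were close together in the middle of the dominant ones (difference -0.0024 ± 0.066, SE).

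**Figure D3:**
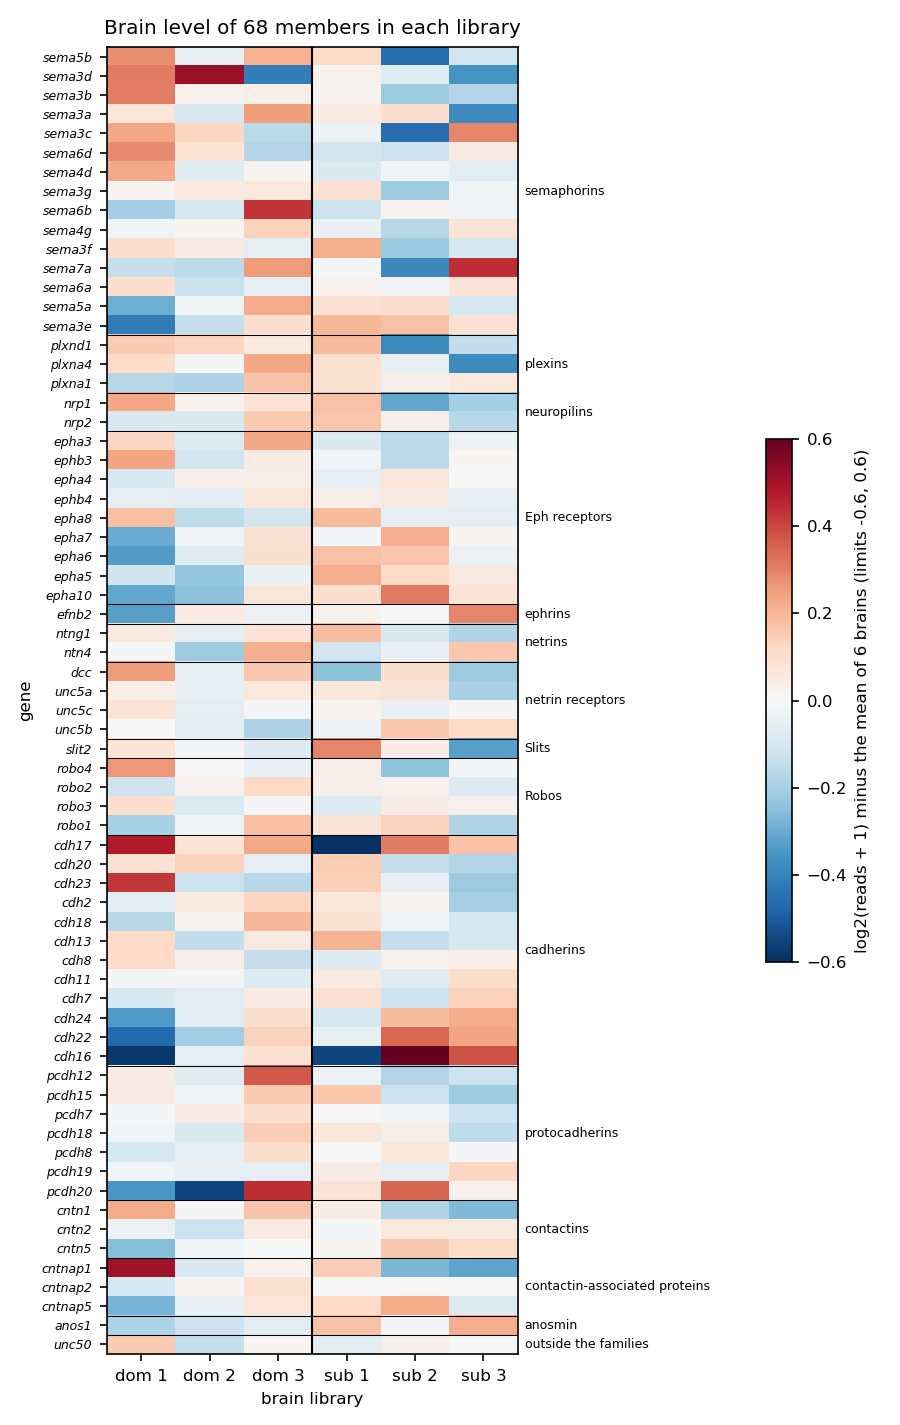
Level of each of the 68 members in each brain library, as log2(reads + 1) minus the mean of the 6 brains, with dominant libraries on the left and families separated by lines. Red is above and blue below the mean, and the colour scale ends at 0.6 either way. Libraries of 1 status differ among themselves, and dominant replicate 2 is the highest library for 1 member.

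The library in which a member was highest was uneven. Dominant replicate 3 was highest for 19 of 68 members (27.9%, beside 14.0% of all genes tested), dominant replicate 1 for 17 and dominant replicate 2 for 1 (1.47%, beside 12.7%). Subordinate replicates 1, 2 and 3 were highest for 13, 10 and 8. Dominant replicate 1 was also lowest for 19 members. In the hox-adjusted fit 0 members passed (2 had an unadjusted p under 0.05), where 0.0046% of genes tested did. The median hox-adjusted difference was -0.04, beside -0.0062 over all genes tested. Of the 68 members 30 changed sign, beside 7998 of all 21743 genes tested. The score itself differs with status, so this fit separates status from it only through the spread within each group.

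**Figure D4:**
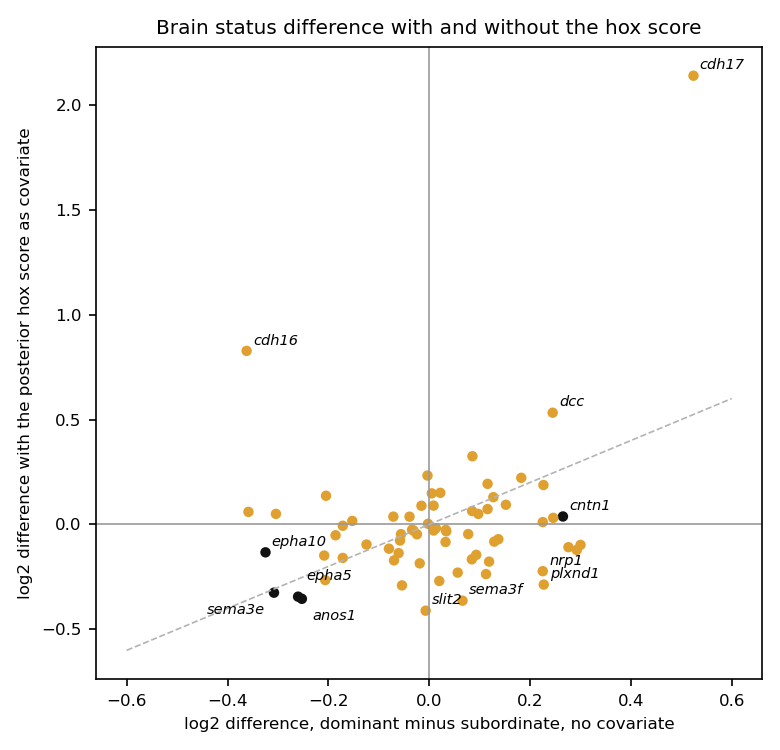
Log2 difference (dominant minus subordinate) of the 68 members in the brain without a covariate (horizontal axis) and with the posterior hox score as a covariate (vertical axis). The dashed line marks equal values and black points are members with an unadjusted p under 0.05 without the covariate. anos1, epha5 and sema3e stay near the line, cntn1 lies near 0 on the vertical axis, and cdh17, with few reads, lies at 2.14.

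Many copies of these families carry no symbol in the brain table. Of its 17130 identifiers that begin with LOC, 5834 had a symbol in the RefSeq gene table of assembly O_niloticus_UMD_NMBU, and 67 of these, with a mean of at least 10 reads, belong to the same families. Of the 67, 35 had a difference above 0 (median 0.0031, range -0.45 to 0.50) and 0 passed. An unadjusted p under 0.05 was found for 5 (7.46%, beside 5.17% of all genes tested), and the groups lay apart for 6 (8.96%, beside 10.8%). LOC100709153 (cntn1a) had 7043 ± 438 reads in dominant and 6183 ± 236 in subordinate brains (SD, n = 3 each, difference 0.19, adjusted p = 0.934). It was the 1 locus of the 67 with its groups apart on the upper side (5.46% of all genes tested were). LOC100702624 (cntn3a.1) had 3268 ± 478 against 3937 ± 154 and LOC100703160 (cntn3a.2) had 673.6 ± 69.4 against 803 ± 75.5 (SD, n = 3 each), both with groups apart on the lower side. On that side 5 of the 67 loci had groups apart, beside 5.33% of all genes tested. LOC100711975 (epha4b) had 4270.4 ± 697 against 5509 ± 224 (SD, n = 3 each, difference -0.38, adjusted p = 0.934), and 6 of 8 Eph loci lay below 0. Both further anosmin loci, LOC100696746 (anos1a) and LOC100698047 (anos1b), lay below 0, at -0.27 and -0.15, with overlapping groups. All 4 netrin loci lay above 0, from 0.00016 for LOC100692904 (ntng2b) to 0.40 for LOC100711643 (ntn1b), with overlapping groups. Of the 11 semaphorin loci 5 lay above 0, with a median of -0.016. Among all genes tested 48.8% lay above 0. How reads that match several copies were counted is not given in the sources used here.

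Of 51 tested genes for guidance signalling and catenins, 24 lay above 0 and 27 below (median -0.0064), with 0 passing in either direction. An unadjusted p under 0.05 was found for 1 (1.96%, beside 5.17% of all genes tested), and the groups lay apart for 4 (7.84%, beside 10.8%). farp2, an exchange factor downstream of plexin A and neuropilin, had 370.1, 407 and 370.5 reads in dominant brains, against 384, 277 and 269 in subordinate brains (difference 0.32, adjusted p = 0.934), with subordinate replicate 1 among the dominant values. fat3, a giant cadherin, had 5155, 4763 and 5299.7 against 5359, 5488 and 5811, with groups apart (difference -0.13, adjusted p = 0.934). vangl2, a planar cell polarity gene, had 681, 676 and 614 against 554, 611 and 609.7, apart on the upper side (difference 0.15, adjusted p = 0.934).

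In the pituitary, 5 members were listed, and all 5 had more reads in dominant males. The deposited pituitary table holds 714 genes, and the authors' deposited p-value for dominant against subordinate is under 0.05 for each of them, so being listed already selects for a difference. The other members were not analysed here in that tissue. The listed genes held 1649554 to 7025630 reads per library, which is not the libraries' depth. The gonadotropin subunit genes fshb and cga, which mark the pituitary, were among them. The 5 listed are 7.35% of the 68 members, beside 3.15% of the 21743 brain genes tested. In the table as a whole 52.1% of genes lay above 0. Of the 5, 0 passed limma over the 714 genes, where 6 genes (0.84%) passed. The adjustment ran over these selected genes only. Adjusted p-values and calls in this tissue are thus too lenient and give no error rate over all pituitary genes. An unadjusted p under 0.05 was found for 4 of 5, all higher in dominant males, beside 56.6% of the table (37% higher, 19.6% lower). The groups did not overlap for 4 of 5, all higher, beside 66% of the table (38.5% higher, 27.5% lower).

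anos1 had the largest difference. It had 103, 133 and 124 reads in dominant pituitaries and 45.5, 59.9 and 65.3 in subordinate pituitaries. Every dominant value lay well above the subordinate ones, with a difference of 1.07 ± 0.26 (SE, limma adjusted p = 0.0855), and the authors' deposited table gives it a p-value of 0.000161. sema7a had 339, 447 and 462 reads against 246, 198 and 298 (difference 0.75 ± 0.21, SE, limma adjusted p = 0.0855). Its lowest dominant value lay above its highest subordinate one.

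cntn1 had 105, 154 and 138 reads in dominant pituitaries and 111, 54.9 and 59.7 in subordinate pituitaries (difference 0.86 ± 0.33, SE, limma adjusted p = 0.0855). Subordinate replicate 1 overlapped with the dominant libraries. sema3a had 84.2, 132 and 124 reads against 40.6, 83.6 and 79.3 (difference 0.77 ± 0.36, SE, limma adjusted p = 0.0910), and the groups were apart by less than 1 read. sema3e had 654, 613 and 799.7 reads against 581, 483 and 443 (difference 0.46 ± 0.17, SE, limma adjusted p = 0.0855). Without subordinate replicate 1, limma called 3 of the 5, anos1 at 0.92, cntn1 at 1.18 and sema3e at 0.57, where 35.7% of the 714 genes were called. At an adjusted p under 0.1 with all libraries 5 of 5 were called, beside 85% of the table.

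**Figure D5:**
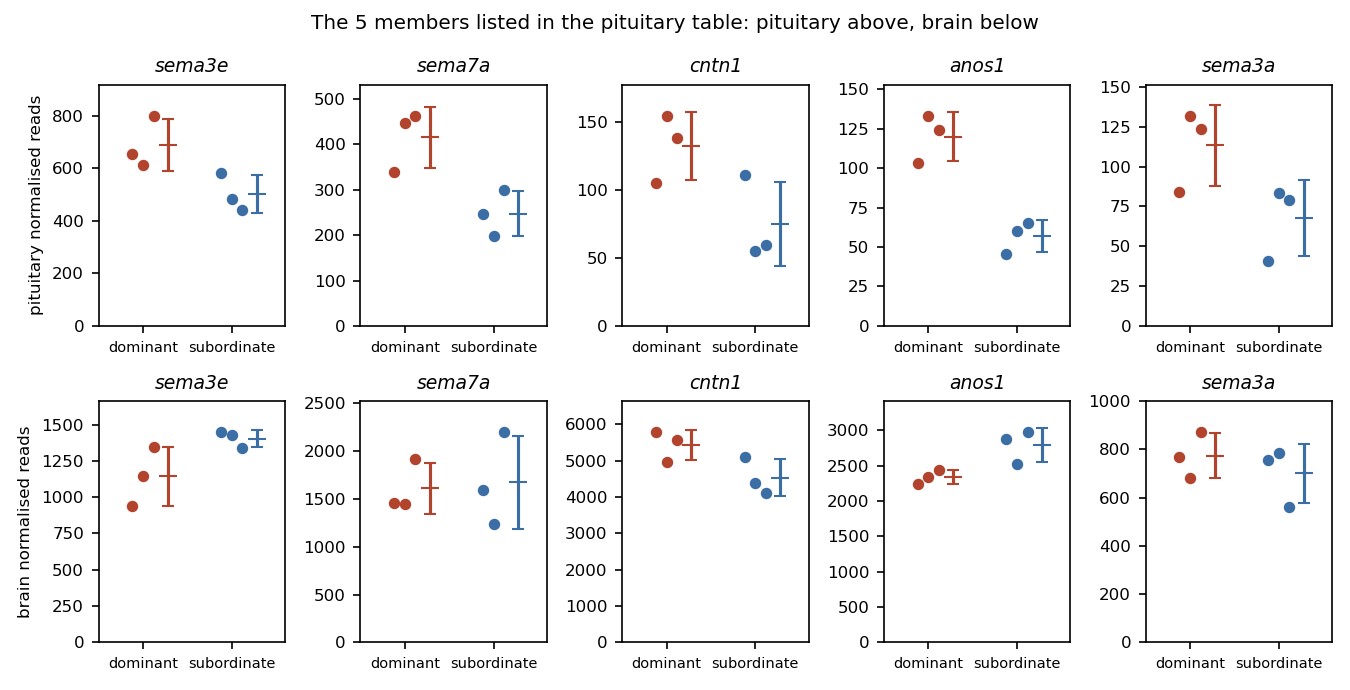
Normalised reads of the 5 members listed in the pituitary table, in each pituitary library (upper row) and each brain library (lower row), with mean and SD (bars, n = 3), dominant on the left. The tables were normalised separately, so rows are not compared in level. In the upper row the dominant means lie above the subordinate ones in all 5, while in the lower row those of sema3e, sema7a and anos1 lie below.

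A test of the status difference between the tissues passed for 3 of the 5. The pituitary minus brain difference was 1.33 ± 0.27 (SE) for anos1, from 1.07 in the pituitary and -0.25 in the brain (adjusted p = 0.000102 over the 685 genes tested in both tissues, where 20.6% passed). For sema3e it was 0.76 ± 0.22 (adjusted p = 0.00733, from 0.46 and -0.31), and for sema7a 0.78 ± 0.30 (adjusted p = 0.0491, from 0.75 and -0.03). For cntn1 and sema3a it was 0.60 ± 0.35 and 0.62 ± 0.39 and did not pass (adjusted p = 0.142 and 0.174). This test, a normal test on the limma estimates, takes the tissues as independent. With 3 libraries per group a normal test gives p-values that are too small. The pituitary genes had been selected for a difference there, which favours a gap in advance, so the test cannot establish one.

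Further loci of the families, named only through RefSeq, were also listed in the pituitary. LOC100707137 (pcdh10b), a protocadherin, had 573, 527 and 374 reads in dominant pituitaries and 263, 288 and 301 in subordinate pituitaries, with the groups apart (difference 0.77, limma adjusted p = 0.0855). LOC100702629 (efna5b), an ephrin-A ligand, had 850.1, 1185 and 1036 against 957, 468 and 467 (difference 0.77), and subordinate replicate 1 stood with the dominant libraries. LOC100706883 (ephb3a) and LOC100693785 (pcdh9) lay above 0 at 0.60 and 0.57 with groups apart. LOC100706207 (sema3h) and LOC100695551 (cntn4) lay below 0 at -0.84 and -1.13 with overlapping groups. Of these 6, 0 passed limma. An unadjusted p under 0.05 was found for 3, beside 56.6% of the table, and groups apart for 3, beside 66%. In the brain the same loci differed by -0.10 for pcdh10b, 0.11 for efna5b, -0.13 for ephb3a, -0.05 for pcdh9, 0.01 for sema3h and -0.08 for cntn4.

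Of the other pathway genes 3 were listed in the pituitary. chl1, a close homolog of the L1 adhesion molecule, had 305, 380.4 and 347 reads in dominant pituitaries and 213, 225 and 190.2 in subordinate pituitaries (difference 0.71 ± 0.16, SE, limma adjusted p = 0.0855). clstn3, a calsyntenin of the cadherin superfamily, had 1309 ± 257 against 909 ± 13.7 (SD, n = 3 each), also with groups apart. cdon, a co-receptor for Hedgehog proteins, had 204 ± 42.1 against 302 ± 73.0 (SD, n = 3 each, difference -0.56, limma adjusted p = 0.0889), with overlapping groups.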

How the data were processed

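Messenger RNA of brain and pituitary was sequenced from 3 libraries per tissue and status. Per the labels' protocols, the RNA came from a miRNeasy extraction and went into TruSeq v2 libraries. Tools named in the submitters' processing notes, with no role or order, were STAR 2.201, FastQC 0.11.4, HTSeq, Trim Galore, DESeq and DESeq2. The genome build, the annotation, strand and the handling of multiply matching reads were not given in the sources used here.

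The deposited signal values are normalised read counts. All values (100%) were whole multiples of a library-specific step within 0.01 reads, which gave whole reads and size factors of 0.956 to 1.10 in the brain. Log2 fold changes and unadjusted p-values were also deposited by the authors, per the file headers. Blank lines (251, brain) were left out, and 0 value columns went unused.

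Each tissue was fitted with limma 3.58.1 (R 4.3.3, eBayes with trend) on log2(value + 1), which understates changes of low genes. The brain fit took genes with a mean of at least 10, and the pituitary fit took all 714 listed. A call is an adjusted p under 0.05. An exact permutation test of 3 against 3 cannot go below 0.1. The fit was also run on simulated counts with changes put in. Its outcome is not given here, so it does not bear on how many real changes were missed. Count tests (edgeR 4.0.16, DESeq2 1.42.0) were run in the brain only.

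Values in every library are given for members listed in the pituitary, members with groups apart (up to 12 per direction, by p), the member with most reads and the member with the smallest p of each family, and dcc, anos1 and the neuropilins. Other members and loci named were picked after their values were seen. The members and lists were chosen with earlier results of these data known. A pathway gene that the naming rule takes is not reported here. Markers and second copies were also matched through RefSeq symbols. Counts per family under each setting were added after seeing the data.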

Additional observations from a re-analysis of the deposited data

Results flagged for a closer look

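A test of the status difference between tissues passed for 3 of the 5 members measured in both, beside 20.6% of the 685 genes tested in both. For each of the 3, the dominant minus subordinate difference was higher in the pituitary than in the brain. The gap was 1.33 log2 units for anos1, 0.76 for sema3e and 0.78 for sema7a. For anos1 the limma difference was 1.07 in the pituitary and -0.25 in the brain, and neither tissue's own test passed over all genes tested there. Leaving out 1 replicate number of a status from both tissues at a time, 2 or 3 of the 5 passed. The test is a normal one, whose p-values are too small at so few libraries per group. The pituitary genes had been selected by the same comparison, which favours a gap in advance, so the test cannot establish a gap. The part of that selection in the gap was not tested.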

How the results depend on the processing

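In the brain 0 of 68 members were called under all 18 alternatives (other pseudocounts, filters and thresholds, TMM or quantile scaling, robust variances, edgeR, DESeq2, the hox covariate, the replicate block, and each library left out), and the members' median stayed between -0.039 and 0.045. Pituitary calls were adjusted over the already selected genes only, which makes them too lenient. In the pituitary 5 of 5 members were called at an adjusted p under 0.1 (beside 85% of the table), and 0 to 3 when 1 library was left out (3 without subordinate replicate 1, beside 35.7% of the table). There anos1, cntn1 and sema3e stood at 0.92, 1.18 and 0.57. Over the 12 pituitary alternatives the log2 difference ran from 0.59 to 1.18 for anos1 and 0.54 to 1.18 for cntn1. It ran from 0.29 to 0.97 for sema3a, 0.34 to 0.57 for sema3e and 0.60 to 0.90 for sema7a. The lowest values of anos1, cntn1 and sema3a lay below their lowest with 1 library left out (0.92, 0.68 and 0.45). The tissue difference was called for 2 or 3 members throughout. Count tests were not run in the pituitary. Same-numbered samples correlated at 0.0916, -0.0303 and -0.0209 in the brain and at 0.148, 0.0777 and -0.0527 in the pituitary. Differently numbered ones ran from -0.0668 to 0.0915 in the brain and from -0.234 to 0.206 in the pituitary. Taken on deviations from means of 3 samples, these correlations cannot decide whether the replicate numbers pair the samples. With the replicate block 0 members were called in either tissue, and 11 brain members had an unadjusted p under 0.05, against 5 without it. The share of all genes with the block was not counted.

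The hox covariate changed the sign of some of the larger brain differences, cdh22, cntnap1 and nrp1 among them. It gave cdh22 0.060, cdh24 0.14, cntnap1 -0.12, cntnap2 0.0033, epha4 0.089, nrp1 -0.22, ntng1 -0.23, robo2 -0.018, robo4 -0.070 and unc5c -0.029. With no change of sign it moved slit2 from -0.0071 to -0.41 and dcc from 0.24 to 0.53. Quantile scaling gave cntnap2 0.041, epha4 0.017 and nrp2 0.0041, and TMM gave cntnap2 0.0054 and slit2 0.00069. DESeq2 and edgeR gave cntnap2 0.0023 and 0.0075. Leaving out 1 library at a time, differences ran from -0.048 to 0.050 for cntnap2, -0.046 to 0.029 for epha4, -0.11 to 0.060 for nrp2, -0.019 to 0.16 for ntng1, -0.044 to 0.079 for robo2, -0.0016 to 0.24 for sema3a, -0.18 to 0.074 for sema5a, -0.23 to 0.18 for sema7a, -0.17 to 0.14 for slit2 and -0.029 to 0.039 for unc5c. The cause was not tested. With 3 libraries per group the SE was 0.0626 to 0.501, so small differences could not be told from 0.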
